A study of Rattus norvegicus with 6 samples.

Results

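This account concerns 38 well expressed genes whose RNA was lower in every Cyp2j4 knockout library than in every wild-type library of rat macrophages. They were chosen by measured values. A gene qualified if its mean over the wild-type libraries lay from 10 to under 1000 CPM (a gene's reads scaled to a library total of 1000000) and if its lowest wild-type value was at least 1.15 times its highest knockout value. Of the 29516 genes listed, 7602 lay in that range of levels, and the 38 made up 0.500% of these. The same values fix the direction, so levels and differences between genotypes are given for the 38 as a description and carry no support from any test.

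The cells were macrophages grown in culture from rat bone marrow, in 3 wild-type libraries of the Wistar-Kyoto (WKY) strain and 3 libraries of WKY rats with a Cyp2j4 knockout (Cyp2j4-/-). No treatment or time point is stated for either genotype. Neither is an age, how the knockout was made, or how many founder animals it goes back to. The extraction protocol gives n = 3 for each genotype without tying a library to an animal, so any p-value measures the spread between these libraries, which may be partly technical. In bulk RNA of this kind, fewer cells of a type and less RNA per cell cannot be told apart.

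Cyp2j4 is a cytochrome P450 of the epoxygenase type. Such enzymes oxidise arachidonic acid, a fatty acid released from membranes, to epoxyeicosatrienoic acids, which soluble epoxide hydrolase then converts to diols. These lipids are known as vasodilators and as modulators of inflammation, and some act as ligands of the nuclear receptor PPAR-gamma, a regulator of lipid handling in macrophages. The title of the series asks about a fibrosis-promoting pattern of macrophage transcripts set by the enzyme. The counts carry Ensembl identifiers without gene names and 0 of them matched the reference gene table, so Cyp2j4, macrophage markers and markers of other cells were not analysed here by name. The genotype and cell labels therefore stand unchecked against expression. Only the gene with the widest gap and the gene with the highest level are given by identifier. All others are given by their rank, 1 for the widest gap and 38 for the narrowest.

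The libraries held from 27248491 to 33916549 gene counts in wild type and from 21590429 to 23923666 in knockout, so every knockout library was shallower. Across the 7602 genes, knockout replicate 2 had Spearman correlations of 0.958 and 0.964 with the other knockout libraries, which correlated at 0.989 with each other. Wild-type libraries correlated at 0.992 to 0.994. With wild type replicates 1 to 3, knockout replicate 1 correlated at 0.983, 0.990 and 0.992. The values were 0.984, 0.965 and 0.967 for knockout replicate 2 and 0.985, 0.984 and 0.987 for knockout replicate 3. These correlations did not group the libraries by genotype. Scaled to the library total, the median gene of the range was 4.42% lower in knockout on average. Differences of members are to be read against that shift, which was 1.60% after scaling by TMM (a trimmed mean of log ratios that discounts a few very abundant genes).

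In 1 member RNA was almost lost in knockout cells, 2 more were at about 41% to 52% of wild type, and the other 35 were lower by moderate amounts. Wild-type means were from 10.3 to 483 CPM with a median of 18.3 CPM. The mean in knockout was lower by 16.4% to 96.1%, with a median of 23.8%. The ratio of the means, wild type over knockout, was under 1.5 in 31 members, from 1.5 to under 2 in 5, and at least 2 in 2. Summed over all 38 members, RNA stood at 1647, 1778 and 1706 CPM in wild type replicates 1 to 3 and at 1293, 1243 and 1205 CPM in knockout replicates 1 to 3. The member with the widest gap accounts for little of that difference. Without it the sums were 1617, 1739 and 1673 CPM against 1292, 1242 and 1204 CPM.

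**Figure D1:**
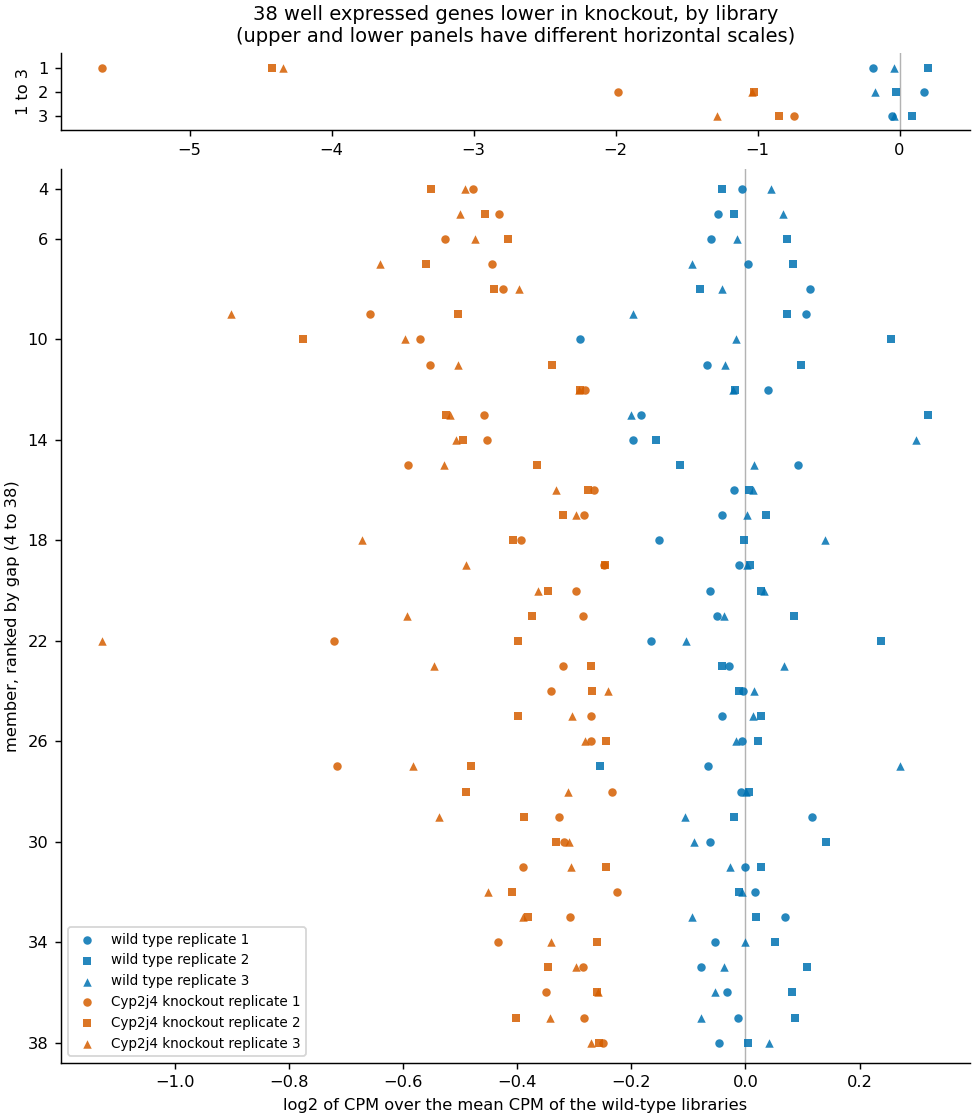
Each row is 1 of the 38 members, ranked by gap, and each point is 1 library (blue, wild type; orange, knockout; marker shape, replicate number), placed at the log2 of its CPM over the mean of the 3 wild-type libraries. The upper panel, on its own wider scale, holds ranks 1 to 3. Rank 1 lies apart from all others, and in ranks 4 to 38 the knockout points lie to the left of the wild-type points by the gap that the choice required.

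ENSRNOG00000031004 had the widest gap. It stood at 29.8, 39.2 and 33.1 CPM in wild type replicates 1 to 3 and at 0.695, 1.59 and 1.68 CPM in knockout replicates 1 to 3. Every wild-type library was at least 17.8 times any knockout library, and the means were 34.0 ± 4.73 and 1.32 ± 0.544 CPM (SD, n = 3 each). Knockout replicate 1 was the lowest, with 15 counts, and replicates 2 and 3 lay close together. In the fit across all 11645 genes with enough counts, this gene fell by 4.61 ± 0.26 on the log2 scale (SE; edgeR quasi-likelihood test, adjusted p = 0.00258) and had the smallest p of all genes tested. It ranked 10 among the 38 by wild-type level. Whether it is Cyp2j4 itself, the gene knocked out, was not tested, since the identifiers could not be matched to names.

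The members with the next widest gaps were weakly to moderately expressed, and their knockout libraries were unequal. Rank 2 stood at 17.9, 15.6 and 14.1 CPM in wild type and at 4.03, 7.82 and 7.72 CPM in knockout. Its knockout mean was 59.0% below the wild-type mean, and knockout replicate 1 lay well below replicates 2 and 3. Rank 3 stood at 17.3, 19.1 and 17.5 CPM in wild type and at 10.7, 9.99 and 7.35 CPM in knockout, a mean 47.9% lower. Here it was knockout replicate 3 that lay lowest. The log2 fold changes of ranks 2 and 3 were -1.23 ± 0.26 and -0.89 ± 0.14 (SE), with edgeR adjusted p of 0.186 and 0.0989, neither under 0.05.

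From rank 4 downwards the gap was under 1.4. Rank 4 stood at 18.3, 17.8 and 18.9 CPM in wild type and at 13.2, 12.5 and 13.0 CPM in knockout. Rank 5 stood at 11.4, 11.6 and 12.3 CPM in wild type and at 8.71, 8.57 and 8.31 CPM in knockout. In both, the spread within each genotype was small beside the distance between them, which the choice itself favours. Their edgeR quasi-likelihood adjusted p were 0.144 and 0.226. Ranks 6, 7 and 8 had wild-type means of 23.2, 16.8 and 39.9 CPM and knockout means of 16.7, 11.5 and 29.8 CPM. Rank 8 was nearly level across the knockout libraries, at 29.7, 29.4 and 30.3 CPM, while wild type replicate 1 exceeded the other wild-type libraries with 43.2 against 37.8 and 38.8 CPM. Rank 9 was more scattered, at 18.9, 18.5 and 15.3 CPM in wild type and 11.1, 12.4 and 9.39 CPM in knockout.

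The 3 members above 100 CPM in wild type differed in how steady they were. ENSRNOG00000017819, the most abundant, stood at 489, 479 and 481 CPM in wild type replicates 1 to 3 and at 413, 364 and 353 CPM in knockout replicates 1 to 3. The wild-type libraries were nearly equal, and knockout replicate 1 lay nearest to them. Its means were 483 ± 5.03 and 377 ± 32.0 CPM (SD, n = 3 each), and its log2 fold change was -0.31 ± 0.07 (SE; edgeR adjusted p = 0.225). Rank 10, the second by level, stood at 197, 287 and 238 CPM in wild type and at 162, 141 and 159 CPM in knockout. Wild type replicate 1 was the lowest of its group and set a gap of 1.21 although the mean was 36.0% lower. Rank 17, the third by level, was steady in both genotypes, at 103, 108 and 106 CPM in wild type and at 86.7, 84.5 and 85.9 CPM in knockout.

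In a few members a single library set the mean of its group apart. Rank 13 stood at 10.6, 15.0 and 10.5 CPM in wild type, where replicate 2 was high, and at 8.75, 8.36 and 8.40 CPM in knockout. Rank 14 stood at 28.6, 29.4 and 40.3 CPM in wild type, where replicate 3 was high, and at 23.9, 23.2 and 23.1 CPM in knockout. Rank 22 varied in both genotypes. It stood at 57.9, 76.5 and 60.4 CPM in wild type and at 39.4, 49.2 and 29.7 CPM in knockout, so that knockout replicate 2 was 1.66 times knockout replicate 3. In these members, as in all others, the difference of the means is larger than the gap that all libraries share. That follows from the gap being set by the lowest wild-type and the highest knockout library.

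Low levels were more frequent among the 38 than among the genes from which they were chosen. Of the members, 20 (52.6%) had wild-type means from 10 to under 20 CPM, against 22.7% of the 7602 genes. Another 11 lay from 20 to under 50 CPM, 4 from 50 to under 100 CPM and 3 from 100 to under 1000 CPM, the last being 7.89% of members against 21.1% of the genes in the range. Put the other way, 1.16% of genes from 10 to under 20 CPM met the rule and 0.187% of those from 100 to under 1000 CPM. Counts behind a member's value were at least 87 in any library apart from rank 1, with a median of 506.5 over all members and libraries. Counting error alone gives a standard error of 10.7% at 87 counts and 4.44% at the median. It covers counting only, since reads without molecular identifiers are not independent molecules. A fixed ratio is thus a smaller multiple of the counting error at low levels, and how far counting error enters the choice was not tested.

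**Figure D2:**
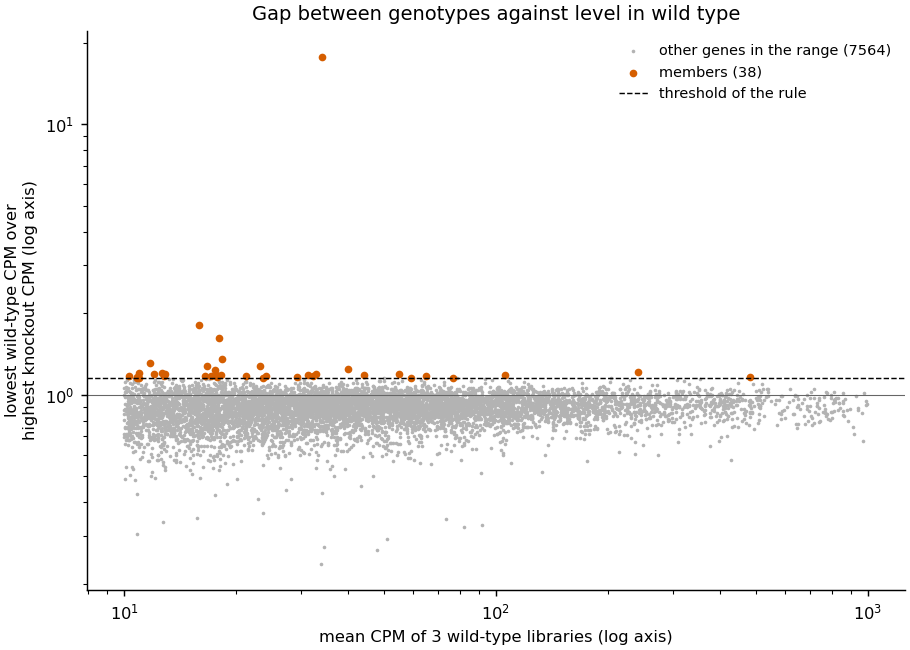
The ratio of the lowest wild-type to the highest knockout CPM (vertical, log axis) is plotted against the mean wild-type CPM (horizontal, log axis) for the 7602 genes in the range, with the 38 members in orange, the rule's threshold of 1.15 dashed and a ratio of 1 as a solid line. Most members lie just above the threshold and toward the left, and 1 lies far above all others at 17.8.

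The threshold lay in the upper tail of the distribution over the range, and most members lay just above it. The gap was from 1.15 to under 1.2 in 27 members, from 1.2 to under 1.3 in 6, from 1.3 to under 1.5 in 2, from 1.5 to under 2 in 2, and above that in 1. The 3 members just inside, ranks 38, 37 and 36, had ratios of 1.151, 1.152 and 1.153 and knockout means 16.4%, 21.1% and 18.1% below wild type. The 3 genes just outside had ratios of 1.1494, 1.1489 and 1.1486 and knockout means 19.8%, 23.6% and 23.0% below wild type. Members near the limit therefore did not have larger mean differences than the nearest genes left out. With any gap at all, 978 of the 7602 genes were lower in every knockout library and 311 were higher. That balance depended on the scaling. It was 607 lower to 467 higher with TMM, 516 to 527 with DESeq2 size factors and 409 to 549 with upper-quartile scaling.

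By the mirrored rule, 28 genes in the same range of wild-type levels were higher in every knockout library by the same factor. The balance between the directions turned with the scaling. It was 38 lower to 28 higher with library totals, 20 to 27 with TMM, 13 to 28 with DESeq2 size factors and 10 to 32 with upper-quartile scaling. Of the 38 members, 14, 11 and 9 still met the rule under those other scalings. All 38 remained lower in every knockout library than in any wild-type library under each of them, with smallest ratios of 1.056, 1.040 and 1.001. The gap of at least 1.15 required on the same libraries largely fixes that, so nothing is read from it. Under TMM the first 3 members kept gaps of 17.9, 1.66 and 1.60.

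**Figure D3:**
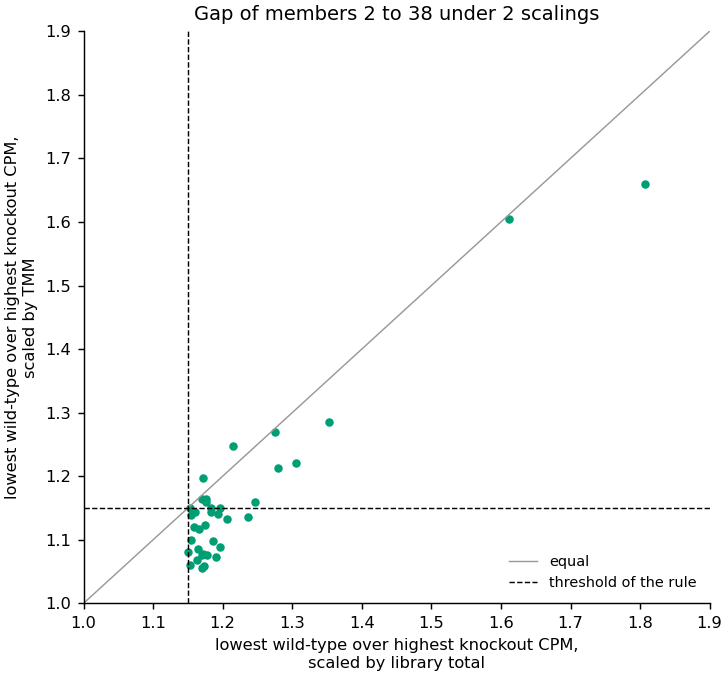
For members 2 to 38, the gap (lowest wild-type over highest knockout CPM) after TMM scaling is plotted against the gap after scaling to library totals, with the line of equal values and the threshold of 1.15 dashed on both axes. Most points lie below the line, and most of those with a gap near the threshold fall under it after TMM scaling, while none goes below 1.056.

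The fit across all genes used the same contrast as the choice, so nothing is read from its p-values for the members. All 38 passed the filter on low counts. At an adjusted p under 0.05 it called 1 member, rank 1, which was also the only lower gene called among 11645 (0.00859%). At an unadjusted p under 0.05 it gave 37 members, against 2.94% of all genes lower at that level. The log2 fold changes of the members ran from -4.61 to -0.21 with a median of -0.34, where the median of all genes tested was -0.01. Adjusted p-values of ranks 2 to 38 lay between 0.0989 and 0.661 (edgeR quasi-likelihood). DESeq2 called 9 members lower, ranks 1 to 4, 6, 7, 9, 10 and 32, where it called 0.110% of all genes lower, 18 in number. Without knockout replicate 2, edgeR called 13 members lower, beside 43 genes in all (0.362%).

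Within the genotypes, the members varied less among the knockout libraries than other genes of the range did. The coefficient of variation (SD over mean) among the 3 knockout libraries had a median of 4.81% over members and 9.97% over the 7602 genes, and among the wild-type libraries 5.41% and 5.56%. The rule favours genes with a small spread, so this is no independent property of the members. Knockout replicate 2, which stood apart from the other knockout libraries over the range as a whole, was not apart from them at the members. Its median absolute log2 distance from the mean of the other knockout libraries was 0.07 at members and 0.20 over the range. The rule bears on this as well, since it leaves out genes at which any knockout library lay high. The highest knockout value, which sets the gap, came from replicate 1 in 21 members, from replicate 2 in 12 and from replicate 3 in 5. The lowest wild-type value came from replicate 1 in 19, from replicate 2 in 7 and from replicate 3 in 12. Over the whole range, knockout replicate 1 was the highest of its group at 49.7% of genes and wild type replicate 1 the lowest of its group at 58.4%.

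The choice was repeated without each library in turn, and the position of the library left out was noted. It was set against the same libraries of the other genotype that the rule had picked for being high or low at those genes. The choice by itself therefore raises the shares below above those of the whole range, which are given for reference and are not the shares to be had without a difference between genotypes. Without knockout replicate 3 the rule gave 48 genes, and that library lay under every wild-type library at 46 of them (95.8%), where it did so at 43.7% of all genes in the range. Without knockout replicate 2 it gave 126 genes, and replicate 2 lay under every wild-type library at 86 (68.3%), against 59.4% of the range. Without knockout replicate 1 it gave 232 genes, and replicate 1 lay under every wild-type library at 102 (44.0%), against 29.7% of the range. The share was highest for replicate 3 and lowest for replicate 1.

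The same was done for the wild-type libraries, which were set against the 3 knockout libraries picked as low. Without wild type replicate 2 the rule gave 50 genes, and that library was above every knockout library at all 50 (100%), against 39.0% of the range. Without replicate 1 it gave 84 genes, with that library above every knockout library at 79 (94.0%), against 21.2% of the range. Without replicate 3 it gave 87, with that library above at 72 (82.8%), against 31.1%. These shares describe single libraries, nothing about the genotypes is read from them, and the differences between them were not tested.

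**Figure D4:**
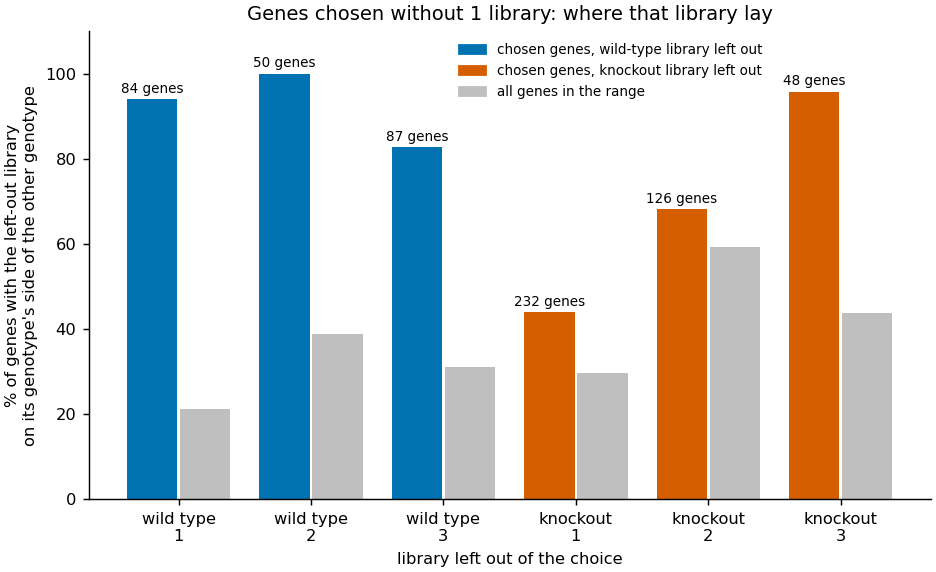
For each library left out, the coloured bar is the percentage of the genes chosen from the other 5 libraries at which the left-out library lay beyond every library of the other genotype on its own side (blue, wild type; orange, knockout), and the grey bar is the same percentage over all genes in the range. The number over each coloured bar counts the genes chosen. The coloured bar is 100% for wild type replicate 2 and 44.0% for knockout replicate 1, and the choice itself raises the coloured bars over the grey ones.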

How the data were processed

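RNA-seq of 3 wild-type and 3 knockout libraries was used. The authors deposited 1 table of raw counts per Ensembl gene identifier. Reads were aligned to rn4 with TopHat2 and counted with HTSeq, per the submitters' processing notes. The strand setting, versions and annotation release: not given in the sources used here. Hence how reads of overlapping or antisense genes were handled is not known. The summary line of ambiguous reads held 0.799% to 0.943% of listed reads. The 5 summary lines, 18.7% to 19.6% of listed reads, were left out, and 0 columns belonged to other samples. CPM used library totals. Knockout was compared with wild type in R 4.3.3 with edgeR 4.0.16 (filterByExpr, TMM, quasi-likelihood F test, genotype as the only term, Benjamini-Hochberg adjustment). DESeq2 1.42.0 and limma-voom (limma 3.58.1), other scalings, no filter, a replicate block and each library left out were alternatives. Fits were tested on simulated data. No 2 libraries were copies of each other (lowest chi-square over its degrees of freedom for any pair, 9.85). The members, lists and tests were chosen with earlier results of these data known. Genes given individually were set by rank of gap and of level, at most 2 by identifier. Ranks 13, 14 and 22 were singled out after their values were seen. Gene lists, marker lists, promoter motifs and sequences were not analysed here, since the identifiers could not be matched.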

Additional observations from a re-analysis of the deposited data

How the results depend on the processing

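The 38 genes meeting the rule became 20 with TMM, 13 with DESeq2 size factors and 10 with upper-quartile scaling. They became 978 with any gap, where 311 were higher by the mirrored rule. At ratios of at least 1.3 and 1.5 they were 5 and 3. They were 112 with wild-type means from 1 CPM and 7 from 50 CPM. Leaving out 1 library gave from 48 to 232 genes (84 and 87 without wild type replicates 1 and 3, 126 and 232 without knockout replicates 2 and 1). These sets held all 38 members except without wild type replicate 1, where they held 37. Leaving out a library cannot narrow a member's gap, so only the limits on the wild-type mean could remove a member. The overlap is therefore set by the choice, and nothing is read from it. The edgeR count of lower genes was 1, of which 1 was a member. It became 5 with 2 members among 17135 genes without a filter on low counts, and 18 with 9 members among 16319 genes in DESeq2. It ranged from 1 to 43 genes and from 1 to 13 members with 1 library left out, the higher values without knockout replicate 2. The cause was not tested. Scaling and limma-voom left both counts at 1. With the replicate number as a block both counts were 1 as well. Residuals of same-numbered libraries correlated at -0.44, -0.14 and 0.15, so the numbers were not taken as pairing the libraries. Those of differently numbered libraries ran from -0.33 (wild type replicate 3 with knockout replicate 2) to 0.45 (wild type replicate 1 with knockout replicate 2). Whether libraries were paired in another way was not tested. ENSRNOG00000031004 stayed under an adjusted p of 0.05 in all 13 alternative fits (log2 fold change -4.81 to -4.29). ENSRNOG00000017819 passed it in 1 of 13, DESeq2 (adjusted p = 0.0451, -0.31). The members' fold changes were negative in every fit. The choice on the same libraries largely fixes that sign, so nothing is read from it.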

Other observations

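The same gap outside the range of levels was looked at as well. Among 2987 genes with wild-type means from 1 to under 10 CPM, 74 were lower in every knockout library by the factor of 1.15 and 71 were higher. Among 97 genes of at least 1000 CPM, 0 were lower by that factor, with a widest gap of 1.10, and 1 was higher. All of these values use library totals for scaling, under which the median gene of the range from 10 to under 1000 CPM was 4.42% lower in knockout.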
